A study of Mus musculus with 15 samples.

Results

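The 10 genes described here act in the making of the lipid barrier of the skin: Elovl4, Cyp4f39, Cers3, Pnpla1, Ugcg, Abca12, Alox12b, Aloxe3, Sdr9c7 and Acer1. They were listed by name, by a rule that uses no measured value but with earlier results of these data known, and were 10 of the 36528 genes listed in each library; counts over them describe these genes and support nothing further. Polyadenylated RNA was sequenced from nests of basal cell carcinoma that had been cut by laser capture from fresh frozen mouse skin. All mice carried K14Cre-ER, Ptch1fl/fl, p53fl/fl and Lgr5GFP. K14Cre-ER is a tamoxifen-inducible Cre recombinase driven by the keratin 14 promoter, active in basal epithelium, and it removes the Hedgehog receptor Ptch1 and the tumour suppressor p53. The 15 libraries form 3 groups of 5: vismodegib nests, from mice treated for 28 days with this inhibitor of the Hedgehog transducer Smoothened, then untreated Ki67-negative nests and untreated Ki67-positive nests. Ki67 is an antigen of proliferating cells. The vismodegib nests carry no Ki67 label, and the labels give no age. A captured nest includes every cell within the cut, and the labels tie no library to an animal.

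The outermost layer of the epidermis holds stacked sheets of lipid that limit water loss, and their most specialised component is a class of ceramides with very long acyl chains. In differentiating keratinocytes these chains are elongated, hydroxylated at the far end, joined to a sphingoid base and esterified with linoleate, which gives acylceramide. The product is glucosylated, loaded into lamellar granules and secreted, and its linoleate is then oxidised so that the lipid can be bound to proteins of the cell envelope. In humans, loss of most of these enzymes causes congenital ichthyosis, a disorder of dry scaly skin.

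The libraries held between 4887381 and 10328822 reads counted in genes. Levels are given as CPM, counts scaled to a common library total with TMM factors, which allow for differences in library composition. Library numbers follow the accessions, since the labels number no replicates, and do not pair libraries across groups. The accessions of the Ki67-negative libraries come later than those of the other 10, so a batch of their own, if there was one, and the Ki67-negative state cannot be told apart. As context, Ptch1, also a Hedgehog target, averaged 549 CPM in vismodegib nests, 3136 CPM in Ki67-negative nests and 2964 CPM in Ki67-positive nests. All groups carry the same floxed allele, so this does not check the deletion. Mki67, the gene of the Ki67 antigen, averaged 681 CPM in vismodegib, 360 CPM in Ki67-negative and 773 CPM in Ki67-positive nests. By edgeR, vismodegib nests were higher than Ki67-negative nests (adjusted p = 0.00189) and not called different from Ki67-positive nests (adjusted p = 0.538).

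In vismodegib nests 8 of the 10 genes were higher than in Ki67-positive nests and 7 of the 10 were higher than in Ki67-negative nests, by edgeR's quasi-likelihood test at an adjusted p under 0.05. Of all 17282 genes tested, 12.6% were called higher in the first comparison and 15.4% in the second. None of the 10 was lower in either comparison, where 13.4% and 16.5% of all genes were called lower; every fitted log2 fold change was above 0, the smallest being 0.36, and DESeq2 and limma voom called 0 lower as well. Abca12, Aloxe3, Pnpla1, Cers3, Sdr9c7, Acer1 and Cyp4f39 were called in both, Alox12b against Ki67-positive but not against Ki67-negative nests, and Elovl4 and Ugcg in neither. The median log2 fold change of the 10 genes was 2.91 against Ki67-positive nests, where that of all genes was -0.02, and 2.91 against Ki67-negative nests, where that of all genes was -0.03. These comparisons share the vismodegib libraries. In captured tissue of this kind, more cells of a type and more RNA per cell cannot be told apart. Alox12b and Sdr9c7 had counts high enough to be tested only because of the vismodegib libraries; among the other 8 genes, 6 were called higher in each comparison.

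**Figure D1:**
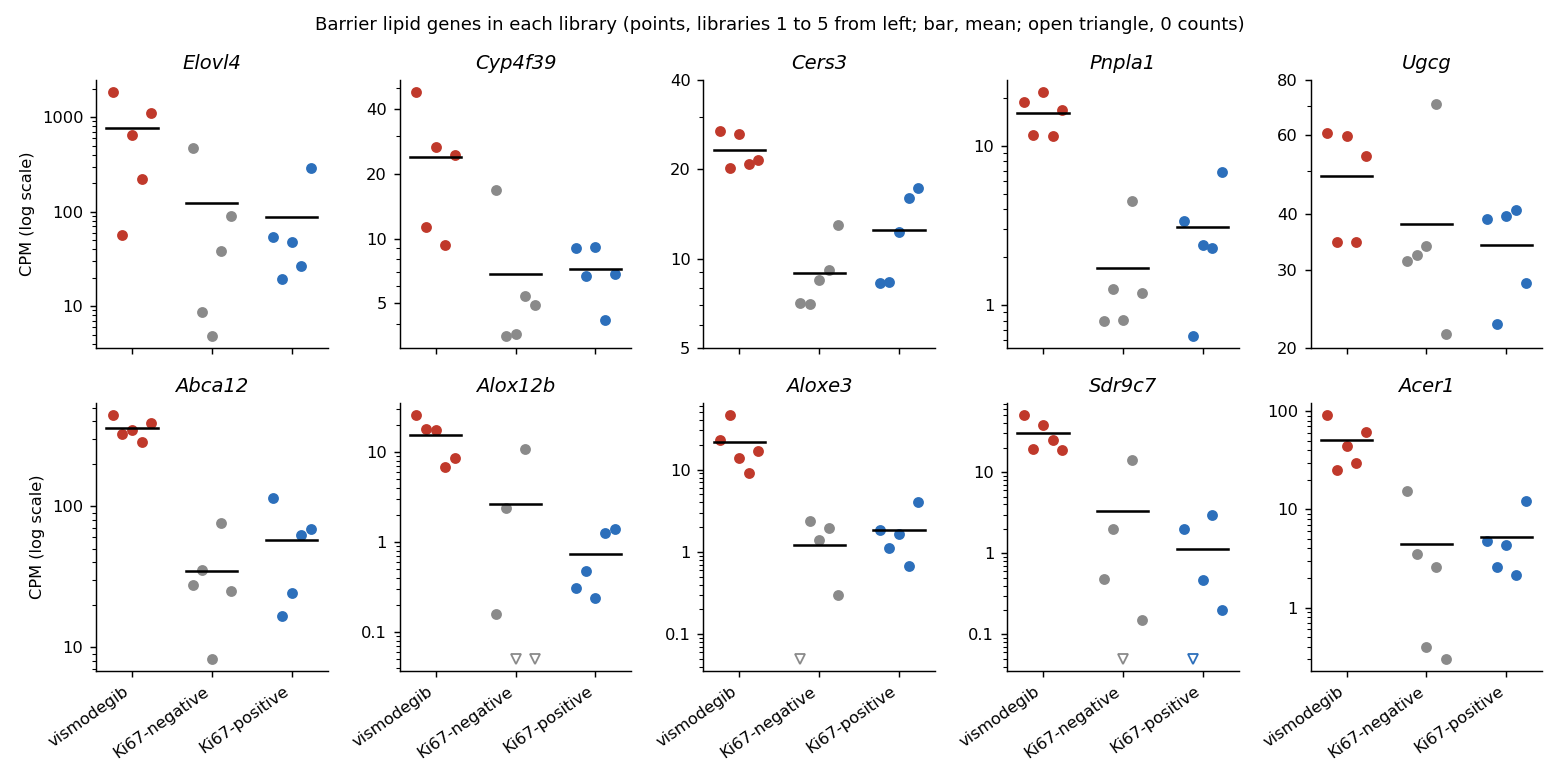
Level of each of the 10 genes in each library, in CPM on a log axis of its own; points are libraries 1 to 5 from left to right in each group, bars are means, and open triangles at the bottom are libraries with 0 counts. Abca12 lies between 284 and 444 CPM in vismodegib libraries and at or below 115 CPM in every untreated library, while Ugcg overlaps between all groups.

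Promoter sequence was read for 9 of the 10 genes from RefSeq (GRCm38.p6), as 250 bases before to 50 bases after the start site given there. For 5 genes, Elovl4, Abca12 and Sdr9c7 among them, that site is the gene's outer start. It lies inside the gene by 26 bases for Cyp4f39, 43 bases for Ugcg, 125 bases for Pnpla1 and 10386 bases for Cers3. The 4 shown are the pair called in neither comparison, Elovl4 at chr9:83806256-83806555 (minus strand) and Ugcg at chr4:59189300-59189599 (plus strand), and 2 of those called in both, Abca12 at chr1:71414861-71415160 (minus strand) and Sdr9c7 at chr10:127898285-127898584 (plus strand). Capitals mark the motif matches described after the sequences.
Elovl4: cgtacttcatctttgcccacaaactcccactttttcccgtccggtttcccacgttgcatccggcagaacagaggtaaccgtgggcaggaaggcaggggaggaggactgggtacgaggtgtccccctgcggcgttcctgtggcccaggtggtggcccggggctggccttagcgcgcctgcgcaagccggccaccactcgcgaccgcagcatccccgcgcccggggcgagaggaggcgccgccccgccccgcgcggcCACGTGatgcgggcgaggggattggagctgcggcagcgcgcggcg
Ugcg: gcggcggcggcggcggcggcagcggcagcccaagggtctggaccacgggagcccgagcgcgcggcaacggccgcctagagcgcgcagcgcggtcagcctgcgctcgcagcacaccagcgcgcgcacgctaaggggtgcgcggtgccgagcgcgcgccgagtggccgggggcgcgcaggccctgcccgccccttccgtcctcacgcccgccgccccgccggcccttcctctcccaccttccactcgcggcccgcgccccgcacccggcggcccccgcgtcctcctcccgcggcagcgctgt
Abca12: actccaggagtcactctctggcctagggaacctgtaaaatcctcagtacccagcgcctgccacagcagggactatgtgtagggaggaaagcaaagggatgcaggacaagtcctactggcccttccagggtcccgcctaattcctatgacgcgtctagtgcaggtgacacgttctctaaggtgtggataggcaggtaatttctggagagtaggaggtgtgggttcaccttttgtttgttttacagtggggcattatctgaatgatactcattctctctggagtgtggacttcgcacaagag
Sdr9c7: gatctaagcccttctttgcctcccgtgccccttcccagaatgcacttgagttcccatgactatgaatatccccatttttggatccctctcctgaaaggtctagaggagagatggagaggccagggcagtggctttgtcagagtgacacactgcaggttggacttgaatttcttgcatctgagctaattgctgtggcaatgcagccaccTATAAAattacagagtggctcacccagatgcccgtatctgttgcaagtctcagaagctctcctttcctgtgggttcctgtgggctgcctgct
Elovl4 and Ugcg had the richest promoters in G and C, at 71.0% and 81.3% of bases, against 51.3% for Abca12 and 51.0% for Sdr9c7. The median over 32851 promoters of this length was 52.7%. Of 6 motifs searched on both strands, the TATA box (TATAAA) was present in Sdr9c7 alone among the 9 genes, from base -42 to base -37 relative to the start site, and in 13.6% of all promoters. The E-box CACGTG, a palindrome, was present in Elovl4 alone, at bases 5 to 10, and in 7.15% of all promoters. The CCACCC element bound by Klf factors was present in Pnpla1 and Acer1 and in 31.5% of all promoters. TTGCNNAA, a C/EBP element, was present in Pnpla1 and in 10.8% of all promoters. The Grhl element AACCNGTT and the AP-1 element TGANTCA were in none of the 9 windows, and in 2.09% and 7.81% of all promoters. A match is a description of these letters only.

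The first steps build the acyl chain. Elovl4 encodes the elongase that makes the ultra-long fatty acids of acylceramide, and lies on chromosome 9 (83778692 to 83806305, GRCm38.p6, as all gene positions here). In vismodegib libraries 1 to 5 it had 1848, 56.1, 643, 223 and 1105 CPM. Ki67-negative libraries had 476, 8.75, 4.83, 38.5 and 89.3 CPM, and Ki67-positive libraries 53.4, 19.6, 47.3, 26.4 and 290 CPM. Elovl4 thus spanned 32.9-fold within the vismodegib group and 98.6-fold within the Ki67-negative group, and the groups overlapped. Its log2 fold change was 3.16 against Ki67-positive nests (SE 1.32, edgeR adjusted p = 0.099) and 2.65 against Ki67-negative nests (SE 1.29, edgeR adjusted p = 0.138). Neither difference passed, with 95% intervals of 0.29 to 6.02 and -0.15 to 5.45. With DESeq2 it was called in both, at adjusted p = 0.0192 and 0.0488. Without Ki67-positive library 5 the edgeR log2 fold change was 4.40 (adjusted p = 0.0428), and without Ki67-negative library 1 it was 4.44 (adjusted p = 0.0252). Without vismodegib library 1, its highest library, the values were 2.55 (adjusted p = 0.202) against Ki67-positive and 2.04 (adjusted p = 0.276) against Ki67-negative nests.

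Cyp4f39, on chromosome 17 (32452697 to 32493320), is the mouse counterpart of human CYP4F22, the hydroxylase that acts on the far end of the long acyl chain. It had 47.9, 11.4, 26.5, 9.33 and 24.5 CPM in vismodegib libraries. Untreated libraries had 16.7, 3.53, 3.62, 5.41 and 4.92 CPM when Ki67-negative and 9.03, 6.73, 9.12, 4.21 and 6.85 CPM when Ki67-positive. All 5 vismodegib libraries lay above all Ki67-positive ones, though the lowest by little, and Ki67-negative library 1 lay within the vismodegib range. Cyp4f39 was higher by a log2 fold change of 1.73 against Ki67-positive nests (SE 0.471, edgeR adjusted p = 0.011) and 1.80 against Ki67-negative nests (SE 0.474, edgeR adjusted p = 0.0077). Without Ki67-negative library 1 the second value was 2.44.

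Cers3 encodes the ceramide synthase that joins ultra-long chains to the sphingoid base (chromosome 7, 66733118 to 66823692). Vismodegib libraries had 26.9, 20.2, 26.4, 20.9 and 21.5 CPM of Cers3, against 7.08, 7.06, 8.46, 9.17 and 13.0 CPM in Ki67-negative and 8.27, 8.34, 12.3, 16.1 and 17.3 CPM in Ki67-positive libraries. The vismodegib group was tight, at 23.2 ± 3.20 CPM (SD, n = 5), and overlapped neither untreated group. Although it was among the smaller changes, Cers3 was called in both: its log2 fold change was 0.89 against Ki67-positive nests (SE 0.247, edgeR adjusted p = 0.0118) and 1.37 against Ki67-negative nests (SE 0.251, edgeR adjusted p = 0.000474).

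Pnpla1, on chromosome 17 (28858286 to 28890308), encodes the transacylase that places linoleate on the hydroxylated ceramide and so completes acylceramide. It had 18.7, 11.7, 21.8, 11.5 and 16.8 CPM in vismodegib libraries. Ki67-negative libraries had 0.80, 1.27, 0.81, 4.51 and 1.19 CPM and Ki67-positive libraries 3.37, 0.64, 2.37, 2.28 and 6.85 CPM. No untreated library reached the lowest vismodegib library. The log2 fold change of Pnpla1 was 2.40 against Ki67-positive nests (SE 0.514, edgeR adjusted p = 0.00196) and 3.20 against Ki67-negative nests (SE 0.54, edgeR adjusted p = 0.00022). Without Ki67-negative library 4, the highest of its group, the second value was 3.95.

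Ugcg encodes glucosylceramide synthase, which adds glucose to ceramide in most tissues and prepares it for lamellar granules in skin (chromosome 4, 59189507 to 59222833). It had 60.7, 34.7, 59.8, 34.5 and 53.9 CPM in vismodegib libraries, against 31.4, 32.3, 33.8, 70.5 and 21.5 CPM in Ki67-negative and 38.9, 22.6, 39.7, 40.9 and 28.0 CPM in Ki67-positive libraries. The highest of all 15 libraries was Ki67-negative library 4, and all groups overlapped. Neither difference passed the test: the log2 fold change was 0.52 against Ki67-positive nests, with a 95% interval of -0.07 to 1.10, and 0.36 against Ki67-negative nests, with an interval of -0.22 to 0.94 (edgeR adjusted p = 0.186 and 0.338). Without Ki67-negative library 4 the second value was 0.71, with an edgeR adjusted p of 0.0259.

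Abca12, on chromosome 1 (71243090 to 71414910), encodes the transporter that loads glucosylceramide into lamellar granules. It had 444, 327, 348, 284 and 390 CPM in vismodegib libraries. Ki67-negative libraries had 27.7, 35.2, 8.25, 76.1 and 24.9 CPM, and Ki67-positive libraries 115, 16.7, 24.1, 62.1 and 68.7 CPM. The vismodegib libraries lay within 1.57-fold of each other and all above the untreated libraries, which spread 9.21-fold among the Ki67-negative and 6.87-fold among the Ki67-positive. Abca12 was higher by a log2 fold change of 2.65 against Ki67-positive nests (SE 0.544, edgeR adjusted p = 0.00233) and 3.38 against Ki67-negative nests (SE 0.563, edgeR adjusted p = 0.000433). One annotated long noncoding RNA, Gm39659, overlaps Abca12 and had 0 counts.

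Alox12b and Aloxe3 encode the paired epidermal lipoxygenases: the first oxygenates the linoleate of acylceramide and the second converts the product to an epoxyalcohol. They are neighbours on chromosome 11 (Aloxe3 at 69125417 to 69149115, Alox12b at 69157072 to 69169791), with 7956 bases between them. Alox12b had 26.1, 18.1, 17.7, 6.91 and 8.61 CPM in vismodegib libraries, 0.16, 2.40, 0, 10.8 and 0 CPM in Ki67-negative libraries and 0.31, 0.48, 0.24, 1.25 and 1.41 CPM in Ki67-positive libraries. Every vismodegib library was above every Ki67-positive one, and Ki67-negative library 4 lay within the vismodegib range. A count of 0 allows up to 0.6 CPM in Ki67-negative library 3 and 0.45 CPM in library 5 (3 counts, counting error only). Alox12b was higher by a log2 fold change of 4.39 against Ki67-positive nests (SE 1.07, edgeR adjusted p = 0.00645). Against Ki67-negative nests the value was 2.50 (SE 0.941, edgeR adjusted p = 0.0537), which did not pass. Without Ki67-negative library 4 it was 4.47 (edgeR adjusted p = 0.000811).

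Aloxe3 had 23.2, 46.5, 14.0, 9.21 and 17.1 CPM in vismodegib libraries, 0, 2.40, 1.41, 1.95 and 0.30 CPM in Ki67-negative libraries and 1.84, 1.12, 1.66, 0.68 and 4.03 CPM in Ki67-positive libraries. No library of either untreated group reached the lowest vismodegib library, and vismodegib library 2, which was lowest of its group for Elovl4, Cers3 and Acer1, was the highest for Aloxe3. The count of 0 in Ki67-negative library 1 allows up to 0.48 CPM. The log2 fold change was 3.59 against Ki67-positive nests (SE 0.642, edgeR adjusted p = 0.000451) and 4.15 against Ki67-negative nests (SE 0.668, edgeR adjusted p = 0.000156).

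Sdr9c7, on chromosome 10 (127898535 to 127911761), encodes the dehydrogenase that acts on the epoxyalcohol before the lipid is bound to protein. Vismodegib libraries had 50.8, 19.2, 37.6, 25.2 and 18.9 CPM of Sdr9c7. Ki67-negative libraries had 0.48, 1.98, 0, 14.0 and 0.15 CPM and Ki67-positive libraries 1.99, 0, 0.47, 2.96 and 0.20 CPM. Ki67-negative library 4 was again the highest untreated library, here below the lowest vismodegib library. Counts of 0 allow up to 0.6 CPM in Ki67-negative library 3 and 0.48 CPM in Ki67-positive library 2. Sdr9c7 was higher by a log2 fold change of 4.65 against Ki67-positive nests (SE 1.09, edgeR adjusted p = 0.00546) and 3.16 against Ki67-negative nests (SE 0.988, edgeR adjusted p = 0.0245). The second call was lost without vismodegib library 1 (2.90, adjusted p = 0.0535), without Ki67-negative library 2 (3.02, adjusted p = 0.0555) and with no filter on low counts (3.17, adjusted p = 0.059). Without Ki67-negative library 4 the value was 5.41, and without Ki67-positive library 4 the first was 5.44.

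Acer1 encodes the alkaline ceramidase of the epidermis, which splits ceramides into sphingoid base and fatty acid (chromosome 17, 56953490 to 56982126). It had 91.8, 25.2, 44.6, 29.8 and 60.7 CPM in vismodegib libraries. Untreated libraries had 15.4, 3.53, 0.40, 2.56 and 0.30 CPM when Ki67-negative and 4.75, 2.57, 4.38, 2.16 and 12.3 CPM when Ki67-positive. Ki67-negative library 1 and Ki67-positive library 5 were the highest of their groups, as they were for Elovl4, and neither reached the vismodegib range. Acer1 was higher by a log2 fold change of 3.30 against Ki67-positive nests (SE 0.781, edgeR adjusted p = 0.00572) and 3.49 against Ki67-negative nests (SE 0.789, edgeR adjusted p = 0.00375). Without Ki67-negative library 1 the second value was 4.83.

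**Figure D2:**
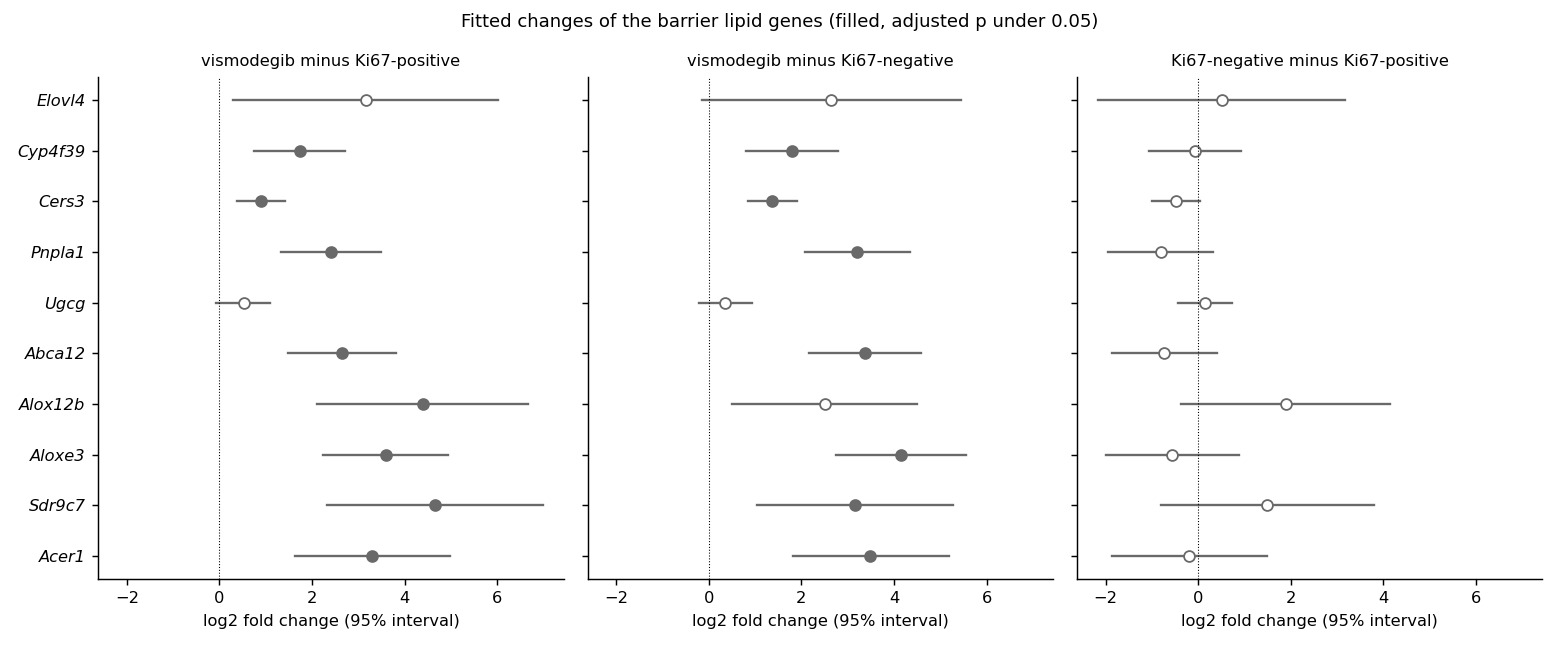
Fitted log2 fold change of each gene with its 95% interval in the 3 comparisons, the first-named group minus the second; filled points have an edgeR adjusted p under 0.05. Ugcg (0.52 and 0.36) and Elovl4 (3.16 and 2.65) are open in both vismodegib panels, Elovl4 with intervals of 0.29 to 6.02 and -0.15 to 5.45, and every point is open in the third panel.

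All 5 vismodegib libraries lay above all 5 Ki67-positive libraries for 8 of the 10 genes, where 10.2% of all genes did so. The same held against Ki67-negative libraries for 6 of the 10, where 10.4% of all genes did so. Elovl4 and Ugcg overlapped in both comparisons, and Cyp4f39 and Alox12b in the second, through Ki67-negative library 1 and library 4.

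The untreated groups were compared with each other to ask whether the genes differ with the Ki67 state. Of the 10 genes, 0 were called between Ki67-negative and Ki67-positive nests, and 0 had an unadjusted p under 0.05 by edgeR; DESeq2 and limma voom also called 0. Among all genes 0.174% were called. The fitted log2 fold changes, Ki67-negative minus Ki67-positive, lay between -0.80 for Pnpla1 and 1.89 for Alox12b, with a median of -0.13, and adjusted p lay between 0.781 and 0.986. The widest intervals were -2.16 to 3.18 for Elovl4, -0.81 to 3.79 for Sdr9c7 and -0.37 to 4.14 for Alox12b. The narrowest were -1.0 to 0.05 for Cers3 and -0.43 to 0.74 for Ugcg. A 4-fold higher level in Ki67-negative nests lies inside the interval for Elovl4, Alox12b and Sdr9c7. It lies outside the interval for Cyp4f39, Cers3, Pnpla1, Ugcg, Abca12, Aloxe3 and Acer1.

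Levels of different genes were set beside each other on the deposited RPKM, reads scaled to gene length and library size. In vismodegib nests the mean RPKM was 69.4 ± 64.6 for Elovl4, 11.8 ± 1.94 for Abca12, 5.69 ± 3.02 for Acer1 and 3.28 ± 0.869 for Ugcg (SD, n = 5). Mean RPKM levels from 2.92 to 1.69 followed for Sdr9c7, Cyp4f39, Aloxe3, Alox12b and Cers3, in that order. Pnpla1 was the lowest at 0.839 ± 0.23 RPKM, and its values and those of Cers3 were the only neighbours in the order that did not overlap. In both untreated groups the order by mean RPKM began with Elovl4, Ugcg and Abca12. There Ugcg had 2.60 ± 1.27 RPKM in Ki67-negative and 2.32 ± 0.542 RPKM in Ki67-positive nests, and Abca12 had 1.15 ± 0.834 RPKM in Ki67-negative and 1.91 ± 1.31 RPKM in Ki67-positive nests. The scarcest were the oxidation genes and Pnpla1: Alox12b, Aloxe3, Sdr9c7 and Pnpla1 each had a mean of 0.321 RPKM or less in Ki67-negative nests and 0.187 RPKM or less in Ki67-positive nests, and all neighbours in both orders overlapped.

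The spread within a group was not shared evenly. Relative to the mean, the SD of the CPM in vismodegib nests was 13.8% for Cers3 and 17.1% for Abca12, 27.0% for Ugcg and 27.9% for Pnpla1, and 93.5% for Elovl4. Over all 15 libraries, with each gene's log2 CPM centred on its own mean, the pair with the most similar profiles was Pnpla1 and Abca12, with a root mean square difference of 0.59 on the log2 scale. Cers3 and Ugcg differed by 0.64 and Alox12b and Sdr9c7 by 1.01. Elovl4 was farthest from the mean profile of the 10 genes, at 1.61, and Pnpla1 nearest, at 0.45. Among genes outside the 10 with an average log2 CPM of at least 3, the profiles nearest to that mean were those of Dgat2 at 0.33, Gltp at 0.425, Adgrf4 at 0.453, Dmkn at 0.469 and Gm32219 at 0.484. Dgat2, which makes triacylglycerol, averaged 29.4 ± 7.13 CPM in vismodegib nests, 5.31 ± 3.87 CPM in Ki67-negative nests and 4.85 ± 2.06 CPM in Ki67-positive nests (SD, n = 5 each).

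**Figure D3:**
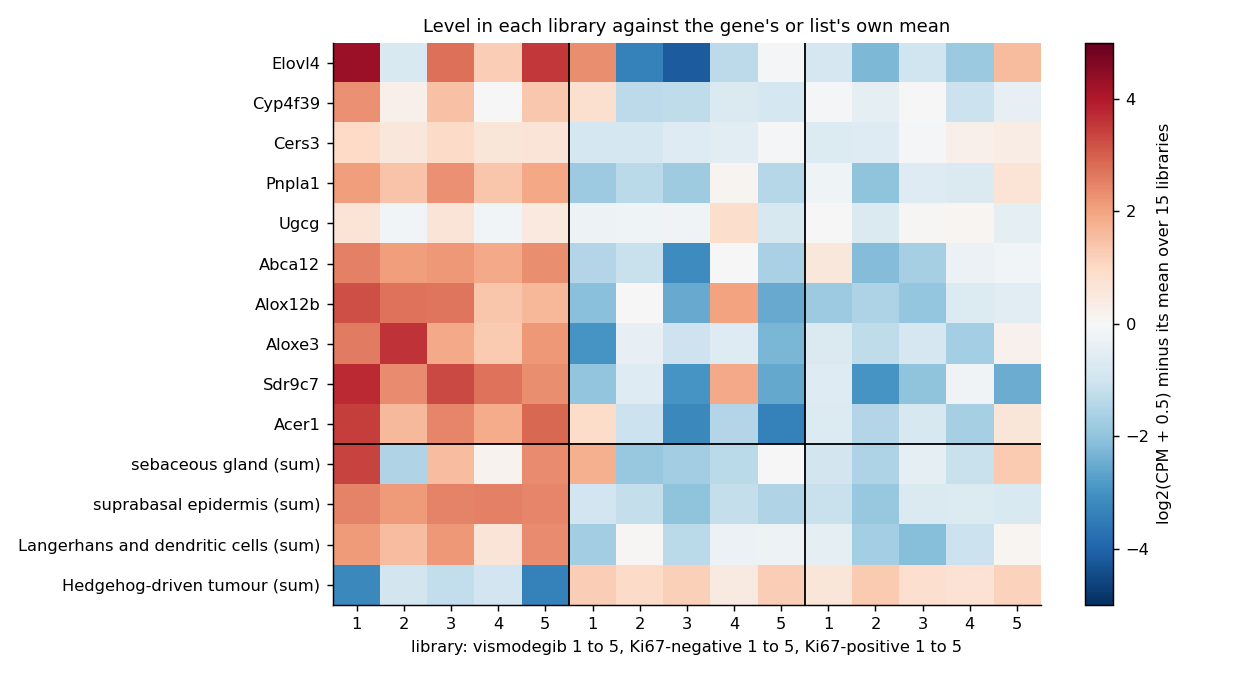
Level of each gene, and of 4 summed marker lists, in each of the 15 libraries as log2(CPM + 0.5) minus its own mean over the libraries; red is above the mean and blue below. Elovl4 and the summed sebaceous gland list are highest in the same library of each group and below their means in vismodegib library 2, and Ki67-negative library 4 is red for Alox12b, Sdr9c7 and Ugcg.

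Elovl4 and Acer1 ran through the vismodegib libraries in the same order, highest in library 1 and then in 5, 3, 4 and 2. That was also the order of the summed CPM of 9 sebaceous gland markers, genes of the oil-producing cells of the hair follicle such as Scd1, Awat1 and Mc5r. This sum was 5326, 185, 1494, 587 and 2646 CPM in vismodegib libraries. Ki67-negative libraries held 1789, 138, 154, 202 and 523 CPM of it, and Ki67-positive libraries 277, 176, 373, 241 and 1296 CPM. Its highest untreated libraries, Ki67-negative 1 and Ki67-positive 5, were also those of Elovl4 and Acer1. Acer1 did not follow the sum throughout. Ki67-negative library 5, the second of its group in the sum at 523 CPM, was the lowest of its group for Acer1, at 0.30 CPM. In vismodegib library 2, at 185 CPM of the sum, Acer1 had 25.2 CPM, above every untreated library. Of the 9 markers 2 were higher against Ki67-positive nests (Scd3 and Mc5r) and 1 against Ki67-negative nests (Scd3). Among all genes tested 12.6% and 15.4% were higher, so these counts lie near that share. Mc5r passed the filter on low counts only because of the vismodegib libraries. Awat1 was at 0 in vismodegib library 2 and in Ki67-negative libraries 2, 3 and 5. The part of sebaceous cells in the levels of Elovl4 and Acer1 was not tested. Elovl4, which is not part of that sum, had a CPM equal to 30.4% to 43.0% of it in vismodegib libraries, 3.15% to 26.6% in Ki67-negative libraries and 11.0% to 22.4% in Ki67-positive libraries, a ratio chosen after the values were seen and given with no test. Fa2h, the fatty acid hydroxylase, also chosen after its values were seen, had 818, 2.84, 223, 40.5 and 416 CPM in vismodegib libraries, in the same order as Elovl4.

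**Figure D4:**
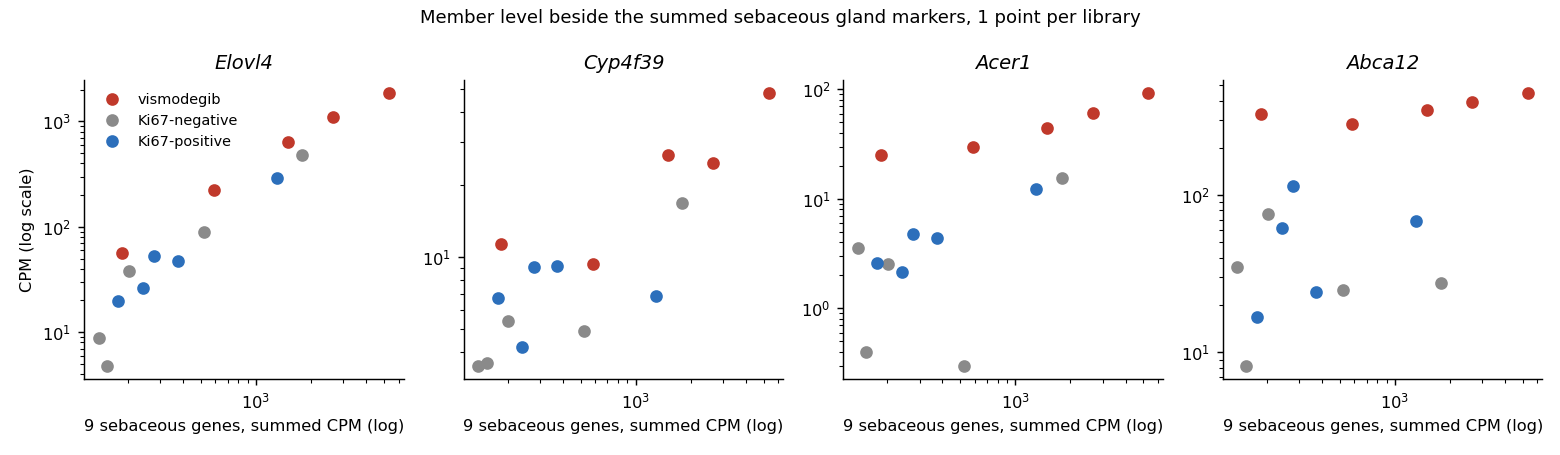
CPM of Elovl4, Cyp4f39, Acer1 and Abca12 beside the summed CPM of 9 sebaceous gland markers, 1 point per library, both axes on a log scale. In each group Elovl4 is highest in the library with the highest sum, while Abca12 in vismodegib nests stays between 284 and 444 CPM as the sum runs between 185 and 5326 CPM.

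Markers of some other cells were, like most of the 10 genes, higher in vismodegib nests, while others were not called or were lower. Counts of markers called are to be read beside the shares of all genes tested. Those shares were 12.6% higher and 13.4% lower against Ki67-positive nests, and 15.4% higher and 16.5% lower against Ki67-negative nests. The suprabasal epidermis list, the layers in which barrier lipids are made, with 10 of its 11 markers listed in the files, summed to 3624 to 4735 CPM in vismodegib libraries, 207 to 428 CPM in Ki67-negative libraries and 221 to 517 CPM in Ki67-positive libraries. All 9 that were tested were higher in both comparisons, Krt1 and Krt10 among them. The marker Lor, at or below 3.02 CPM in every untreated library, passed the filter on low counts only because of the vismodegib libraries. Krt2 stayed at or below 1.57 CPM in every library. Langerhans and dendritic cell markers summed to 720 to 2372 CPM in vismodegib libraries, 136 to 471 CPM in Ki67-negative libraries and 104 to 485 CPM in Ki67-positive libraries, with 7 of 7 higher against Ki67-positive and 6 of 7 against Ki67-negative nests. Basal epidermis markers had 4 of 6 higher in both comparisons and summed to 9693 to 13310 CPM in vismodegib libraries, 5227 to 7636 CPM in Ki67-negative libraries and 6161 to 7192 CPM in Ki67-positive libraries. T cell markers had 4 of 5 higher against Ki67-positive nests and 3 of 5 higher and 1 lower against Ki67-negative nests. Their sums were 78.2 to 153 CPM in vismodegib, 79.8 to 159 CPM in Ki67-negative and 71.1 to 176 CPM in Ki67-positive libraries. Thy1, the marker that was lower, was the largest part of this sum in every library. It averaged 55.0 CPM in vismodegib, 97.5 CPM in Ki67-negative and 90.0 CPM in Ki67-positive nests. Cd3e, Cd3g and Cd5 were higher in both comparisons and Cd3d in the first. Melanocyte markers had 4 of 5 lower against Ki67-positive and 3 of 5 lower against Ki67-negative nests, with sums of 54.4 to 321 CPM in vismodegib, 150 to 1140 CPM in Ki67-negative and 294 to 1457 CPM in Ki67-positive libraries. Of the fibroblast markers 1 of 6 was lower in each comparison, and of the endothelial markers 0 of 4 tested were called or had an unadjusted p under 0.05 by edgeR. Adipocyte markers, which would mark fat under the skin, summed to at most 2.21 CPM in any library. The 5 Hedgehog markers went the other way, at 225 to 1249 CPM in vismodegib libraries, 3188 to 5570 CPM in Ki67-negative libraries and 3580 to 5895 CPM in Ki67-positive libraries, with 5 of 5 lower in both comparisons. Vismodegib libraries 1 and 5, the lowest in the Hedgehog sum, were the highest for Elovl4, Abca12 and Acer1, as seen after the fact. No other of the 10 genes had these libraries as its highest pair. Library 2, the highest in the Hedgehog sum, was highest for Aloxe3, and library 5 was lowest for Sdr9c7. The part of these cell types in the levels of the 10 genes was not tested.

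Other genes of the pathway were read from 9 lists, of which 85 genes were tested. In vismodegib nests 33 were higher and 6 lower against Ki67-positive nests, and 33 higher and 7 lower against Ki67-negative nests. Lipk, Lipn and Alox8, among those higher in both, had counts high enough to be tested only because of the vismodegib libraries. Of all genes tested, 12.6% were higher and 13.4% lower in the first comparison, and 15.4% higher and 16.5% lower in the second. The counts of single lists are to be read beside these shares, and several lie near them. Between the untreated groups 0 of the 85 were called by edgeR and 3 had an unadjusted p under 0.05, so a gene that passed in 1 comparison and not in the other is not shown to differ between the untreated groups. The median log2 fold change of every list was above 0 in both comparisons, but its size and the counts called differed by step. The lists are therefore given in the order of the pathway. Fold changes are on the log2 scale, against Ki67-positive nests first and Ki67-negative nests second.

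For the sphingoid base, 5 of 10 genes tested were higher against Ki67-positive nests and 6 of 10 against Ki67-negative nests, with none lower. Sptlc3, a subunit of serine palmitoyltransferase, was higher by 3.85 and 3.28, and averaged 56.6 CPM in vismodegib nests, 5.76 CPM in Ki67-negative nests and 3.96 CPM in Ki67-positive nests. Sptlc1, the shared subunit of that enzyme, was higher by 0.76 and 0.72, its small subunit Sptssa by 1.02 and 1.20, and the desaturase Degs1 by 0.93 and 1.03. Among the ceramide synthases other than Cers3, Cers6 was higher by 1.50 and 1.46. Cers2, which uses very long chains, had fold changes of -0.65 and -1.02 and was lower in both, while Cers1 (-1.29 and -0.51) was lower in the first comparison, did not pass in the second, and Cers5 (0.42 and 0.41) passed in neither. Cers3 therefore rose beside Cers6 while Cers2 fell.

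In fatty acid elongation, again on the log2 scale, 4 of 11 genes tested were higher and 1 lower in each comparison. The elongases Elovl7 (1.56 and 1.55) and Elovl1 (1.01 and 1.03) and the dehydratase Hacd2 (1.32 and 1.26) were higher, and Hacd1 (-2.08 and -1.45) was lower. Of the acylceramide partners and other ichthyosis lipid genes, 8 of 12 were higher and none lower in each comparison, with medians of 2.58 and 2.32. Lipk and Lipn, counted among the 8, were tested only because of the vismodegib libraries. Epidermal lipases Lipm (2.86 and 2.70) and Lipk (4.60 and 4.16), Dgat2 (2.60 and 2.46) and the epoxide hydrolase Ephx3 (3.12 and 3.12) were all higher. Lipk was near the level that a count of 0 allows in untreated nests, at 0.59 CPM in Ki67-negative and 0.41 CPM in Ki67-positive nests. Ephx3 averaged 30.4 CPM in vismodegib nests, 3.47 CPM in Ki67-negative nests and 3.55 CPM in Ki67-positive nests.

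Sphingolipid processing was mixed, with 5 higher and 2 lower of 12 against Ki67-positive nests and 2 higher and 2 lower against Ki67-negative nests. Sgms2, which diverts ceramide to sphingomyelin, was lower by fold changes of -2.07 and -2.11, at 28.0 CPM in vismodegib nests, 121 CPM in Ki67-negative nests and 118 CPM in Ki67-positive nests. Ceramide kinase Cerk was higher by 0.83 and 0.85. The ceramidase Asah2 (0.81 and 0.43) and the sphingomyelinase Smpd1 (0.69 and 0.52) were higher in the first comparison and did not pass in the second, while Acer1, also a ceramidase, was higher in both.

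Of 4 other lipoxygenases 2 were higher in both comparisons, Alox5 (2.60 and 2.87), the leukotriene enzyme of leukocytes, and Alox8 (4.49 and 2.91). Alox8 was near the level that a count of 0 allows in untreated nests, at 0.78 CPM in Ki67-negative and 0.26 CPM in Ki67-positive nests. It was tested only because of the vismodegib libraries. Alox12e (0.39 and 0.21) and Alox12 (0.42 and 0.52) passed in neither. Of 7 other lipid transporters 2 were higher against Ki67-positive nests and 2 higher and 1 lower against Ki67-negative nests. The cholesterol exporter Abcg1 (1.93 and 1.54) and Abca5 (0.64 and 0.77) were those higher in both, and Abca7 (0.65 and 0.16) and Abcg4 (1.12 and 0.83) passed in neither. Cholesterol synthesis, the other lipid branch of the barrier, had 0 of 14 genes higher and 1 lower against Ki67-positive nests by edgeR, where 2 of 14 had an unadjusted p under 0.05, and 1 higher and 1 lower against Ki67-negative nests. Sc5d (-0.98 and -0.86) was lower in both, Hmgcs1 (0.59 and 0.96) was higher in the second and did not pass in the first, and Cyp51 (0.44 and 0.54) passed in neither.

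Regulators of lipid and barrier genes included 6 higher and 0 lower of 10 against Ki67-positive nests, and 7 higher and 1 lower against Ki67-negative nests. The aryl hydrocarbon receptor Ahr averaged 441 CPM in vismodegib nests, 50.5 CPM in Ki67-negative nests and 55.8 CPM in Ki67-positive nests, with fold changes of 2.98 and 3.12. Klf4 (1.59 and 1.50), Rora (1.36 and 1.10) and Grhl1 (0.92 and 1.15), transcription factors of epidermal differentiation, were higher in both. All lists were chosen with earlier results of these data known, so their counts describe and do not support the changes of the 10 genes.

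**Figure D5:**
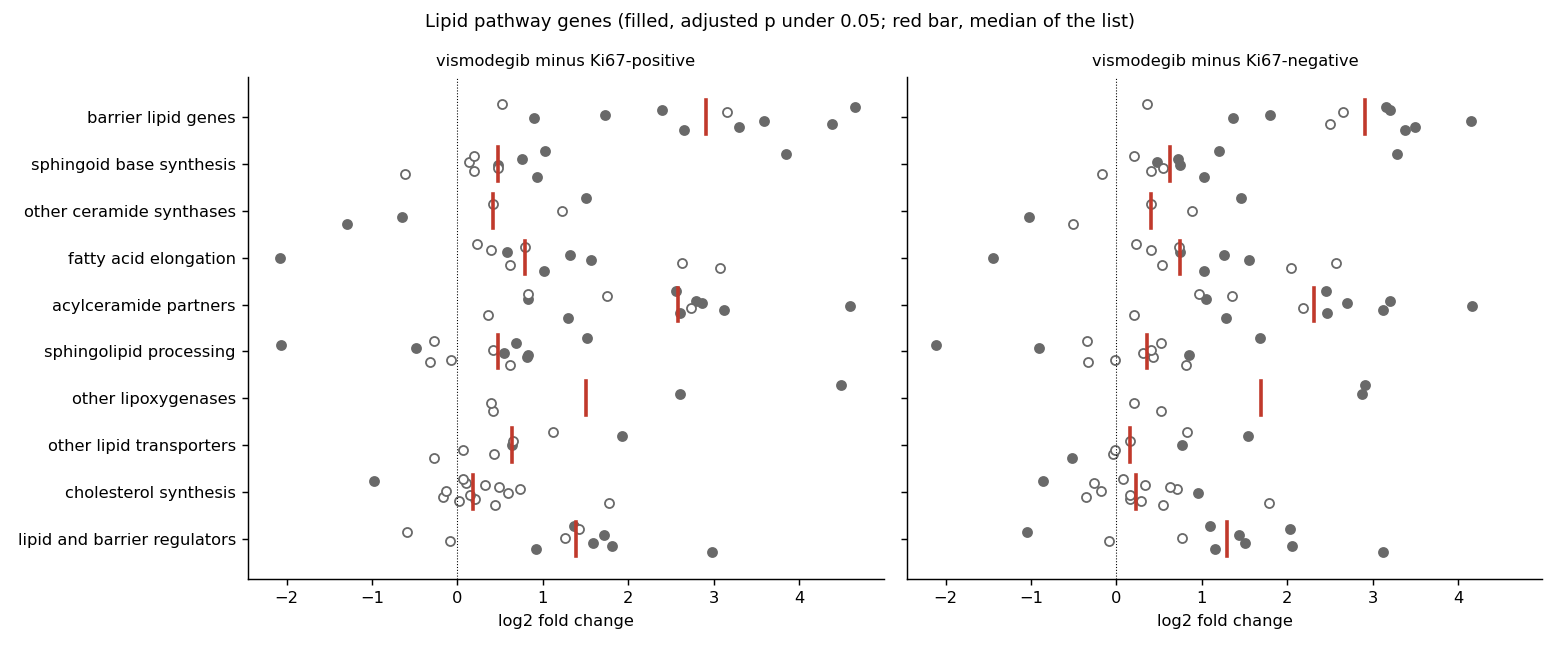
Log2 fold change of each gene of the 10 barrier lipid genes and of 9 lists of related genes, vismodegib minus Ki67-positive (left) and vismodegib minus Ki67-negative (right); filled points have an edgeR adjusted p under 0.05 and red bars are list medians. The 10 genes have medians of 2.91 and 2.91 and the acylceramide partners of 2.58 and 2.32, while cholesterol synthesis sits near 0 at 0.18 and 0.22.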

How the data were processed

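Polyadenylated RNA of 15 libraries was analysed. Per the submitters' processing notes, reads were aligned with GSNAP to GRCm38. The deposited counts are reads aligned uniquely to each gene model, and the deposited RPKM are adjusted by a size factor per library, both per the file headers. For the aligner's version, annotation release and strand use, the sources used here give nothing. Of 36528 NCBI gene identifiers, 31049 (85.0%) matched a RefSeq symbol. Counts were fitted with edgeR 4.0.16 in R 4.3.3 (quasi-likelihood F test, robust, TMM, all 15 libraries, 12 residual degrees of freedom). The filterByExpr filter (minimum count 10, minimum total 15) kept 17282 genes. Tests were two-sided, with Benjamini-Hochberg adjustment over these genes and a threshold of 0.05. A standard error is the fold change divided by the root of F, and intervals are at 95%. Depth was 4887381 to 10328822 counts, and floors cover counting error only. Nothing says that all libraries of a group came from separate animals. Vismodegib libraries 1 to 3 and library 5 of each untreated group were female-like. They had at least 6607 CPM of Xist and at most 0.15 CPM of Ddx3y. The others had at most 59.0 CPM of Xist and at least 76.7 CPM of Ddx3y. Each group therefore drew on more than 1 animal, and sex was not balanced between vismodegib and untreated nests. P-values measure the spread between these samples, which may be partly technical, and are too small where nests of a group share an animal. Where nests of different groups share an animal, the fit ignored that pairing, and p-values between those groups could be too large. No 2 libraries were identical. Alternatives used DESeq2 1.42.0, limma 3.58.1 (voom), other scalings and filters, Xist status as a covariate, and leaving out each library. Promoters came from the RefSeq table of GRCm38.p6. The members and lists were chosen with earlier results of these data known. Genes named are the 10 members, up to 4 genes of each pathway list with the smallest p against Ki67-positive nests, up to 3 abundant markers a list and markers at 0, and the 5 nearest profiles; other markers named in the text were chosen after their values were seen, and 1 gene that this rule names is not reported here. The fit was also run on simulated counts with the same dispersion for every gene. The 10 genes differ in spread, so that run does not check their calls.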

Additional observations from a re-analysis of the deposited data

Results flagged for a closer look

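In 30 groups of 5 libraries (10 genes in 3 groups), 9 had a highest library that stood apart from the rest of its group by Dixon's criterion (gap over range above 0.71). For normally distributed values this criterion flags about 1 in 20 groups by chance. It was applied to CPM without logarithms, which spread unevenly within groups, so that rate is no yardstick for the 9 flags. All 9 were in untreated nests, in 3 libraries.

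Ki67-negative library 4 stood apart for Sdr9c7 at 14.0 CPM, Alox12b at 10.8 CPM, Pnpla1 at 4.51 CPM and Ugcg at 70.5 CPM. Its suprabasal marker sum, 365 CPM, lay inside the 207 to 428 CPM of its group. Markers of that list named after their values were seen differed: in this library Dsc1 had 35.8 CPM, Sbsn 136 CPM and Ivl 9.92 CPM, against at most 11.0, 86.8 and 6.21 CPM in the other Ki67-negative libraries, while Krt10 had 38.5 CPM and Dsg1a 74.3 CPM, against up to 122 and 180 CPM there. Other genes named after their values were seen were high as well: Tgm1 had 15.3 CPM, against at most 1.61 CPM in the other Ki67-negative libraries, Alox12e had 513 CPM, the highest of all 15 libraries, and Grhl3 had 32.5 CPM, against at most 11.1 CPM in the others of its group. The part of suprabasal cells was not tested.

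Ki67-negative library 1 stood apart for Elovl4 at 476 CPM, Cyp4f39 at 16.7 CPM and Acer1 at 15.4 CPM. Ki67-positive library 5 stood apart for Elovl4 at 290 CPM and Acer1 at 12.3 CPM. These libraries had the highest sebaceous marker sums of their groups, 1789 and 1296 CPM, against at most 523 and 373 CPM in the others. The part of sebaceous cells was not tested.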

How the results depend on the processing

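No paired analysis was possible because the labels number no replicates. Over all alternatives, 8 to 9 of the 10 genes were higher against Ki67-positive nests (8 in the reported fit) and 6 to 9 against Ki67-negative nests (7), and 0 were lower. Genes called in all numbered 3767 to 5219 and 4614 to 6171 in these comparisons. No fold change of vismodegib against either untreated group reversed. Between Ki67-negative and Ki67-positive nests, all genes called numbered 30, but 88 with DESeq2, 15 with limma voom, 0 with only the compared groups in the fit, and 0 to 43 with 1 library left out (0 without Ki67-positive 4 or Ki67-negative 3, 4 or 5, 2 without Ki67-positive 5, 12 without Ki67-negative 2). In that comparison uncalled fold changes reversed: with voom, Elovl4 was -0.35 and Alox12b -0.13, and with 1 library left out the log2 fold changes ran between -1.28 and 1.75 for Elovl4, -0.70 and 0.10 for Cyp4f39, -0.19 and 0.31 for Ugcg, -0.08 and 2.23 for Alox12b, -0.76 and 2.28 for Sdr9c7 and -1.52 and 0.37 for Acer1. The cause was not tested. With voom, Sdr9c7 had log2 fold changes of 5.41 and 4.99 against Ki67-positive and Ki67-negative nests, and against the second Alox12b had 4.53 (adjusted p = 0.00308) and Acer1 4.48. A stricter filter gave Alox12b an adjusted p of 0.048 there, over fewer genes. Depth limits Alox12b, Aloxe3 and Sdr9c7 in untreated nests, where single libraries hold 0 counts.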
